A study of Arabidopsis thaliana with 15 samples.

Results

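Cytochrome P450 enzymes are described here for Arabidopsis leaves moved into high light and back: the genes whose names in the deposited table have the form of a P450 name (CYP, a family number, a subfamily letter and a gene number). Of 146 rows with such a name, 19 belong to 10 families or subfamilies set aside as parts of other pathways (CYP73, CYP74, CYP75, CYP79, CYP83, CYP81F, CYP94B, CYP94C, CYP707A and CYP97), and 13 had a sum under 10 normalized counts over the 15 libraries. The 114 genes that remain are the members, out of 21593 genes in the table and 20512 genes tested. The rule itself used names and total level only, but it was set with earlier results of these data known. The rule also misses 15 P450 genes that the table lists under other names, among them PAD3, DWF4, CPD and FAH1.

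The plants were wild-type Col-0, grown for 6 to 7 weeks in an 8 h photoperiod, and RNA came from leaf number 7 of the rosette. Plants at growth light (GL) had a photon flux of 100 µmol m-2 s-1 and were sampled before any high light. HL15 and HL60 plants had 15 or 60 min at 1000 µmol m-2 s-1, and R15 and R60 plants had the same 60 min followed by 15 or 60 min back at 100 µmol m-2 s-1. All 5 conditions share the ecotype, and none was made in a mutant. Each had 3 biological replicates. A GL group sampled alongside each later time was not used here, so the time of day and the light treatment cannot be told apart, and the 4 comparisons with GL share the same GL libraries.

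P450s are haem enzymes that insert 1 atom of oxygen from O2 into their substrate. Most plant P450s are anchored in the endoplasmic reticulum and take their electrons from NADPH through a shared partner, the NADPH-cytochrome P450 reductase. Some make or break hormones, sterols and cutin monomers in all plants, and others belong to large families of tandem copies, such as CYP71, CYP81 and CYP705, that act in defence and in the metabolism of foreign compounds. For many of these tandem copies no substrate is known.

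Values are normalized counts, that is estimated reads scaled for the size of each library and, as inferred from the values and not stated by the sources, for transcript length in some genes, so they compare libraries for 1 gene and not 1 gene with another. Library depth was estimated at 14403243 to 28102805 reads. Together the members made up 0.281 to 0.426% of the normalized counts of a library. The mesophyll marker RBCS1A, the small subunit of Rubisco, lay between 202681 and 348434, and the root marker PYK10 between 0 and 10.7. The mesophyll markers LHCB1.4 and LHCB1.2 did not stay level. LHCB1.4 averaged 81021 in GL, 14888 in HL60 and 6871 in R15, and LHCB1.2 159373 in GL and 74233 in R60. The phloem marker SUC2 averaged 2347 in GL and 1207 in HL60. The guard cell markers FAMA and MYB60 averaged 196 and 86.0 in GL and 94.5 and 36.2 in HL15. Flower marker AG lay between 4.97 and 37.1. The part of these changes in the results was not tested. Root marker CASP1 and flower marker AP1 were not analysed here. HL60 replicate 1 stood apart from the other 2 HL60 libraries: over the members, the SD of its log2 differences from them was 1.25 and 1.38, against 0.93 between those 2 libraries and 0.69 to 0.99 between replicates of the other conditions. In bulk leaf RNA, fewer cells of a type and less RNA per cell cannot be told apart. The strand of the libraries is not given in the sources used here, so reads of a member and of a gene on the opposite strand cannot be told apart either.

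The members covered a wide range of levels. Of the 114, 29 averaged under 10 normalized counts over the 15 libraries, 26 averaged 10 to 100, 41 averaged 100 to 1000, and 18 averaged 1000 or more. They belonged to 29 families, of which CYP71 was the largest with 29 members, followed by CYP705 with 13, CYP81 with 10 and CYP72 with 8. In every library 83 members were above 0.

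More members were called lower than higher from HL60 on. A gene is called here at a Benjamini-Hochberg adjusted p under 0.05 over all genes and a change of at least 2-fold, from a limma fit of log2(value + 1). In HL15 against GL, 6 members were called higher and 3 lower, where 4.79% and 4.66% of all genes were called. In HL60 against GL, 13 were higher and 19 lower, with 7.76% and 7.8% of all genes called. In R15 against GL the counts were again 13 and 19, with 10.9% and 8.94% of all genes called. In R60 against GL, 13 were higher and 25 lower, with 10.7% and 8.53% of all genes called. The 25 that fell in R60 are 21.9% of the members, and the 19 that fell in HL60 and in R15 are 16.7%. The higher calls in HL15, R15 and R60, at 5.26%, 11.4% and 11.4% of the members, were close to the share over all genes.

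**Figure D1:**
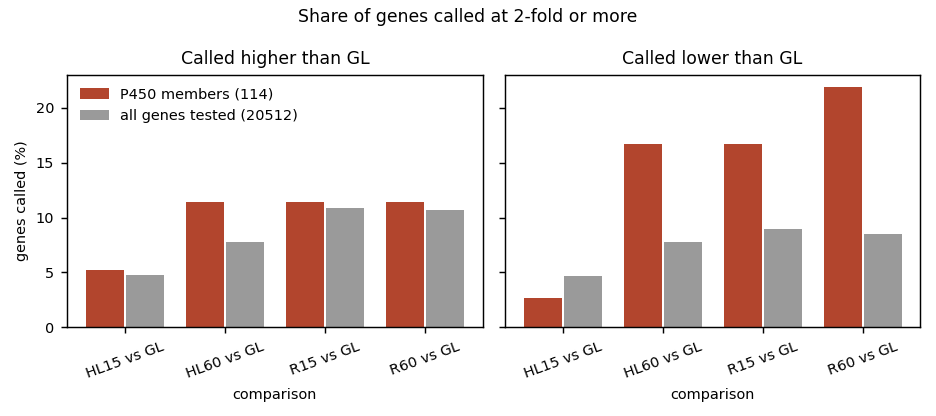
Percentage of the 114 P450 members (left bar of each pair) and of all 20512 genes tested (right bar) called higher (left panel) or lower (right panel) than GL, at an adjusted p under 0.05 and a change of at least 2-fold, for each of the 4 comparisons on the horizontal axis. The 2 bars are close for higher calls in HL15, R15 and R60, and the member bar is the taller one for lower calls in HL60, R15 and R60, reaching 21.9% in R60.

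Of the 111 calls against GL, 79 held when any 1 of the 15 libraries was left out, and none changed direction. Of the 32 that did not hold, 24 were in members that averaged under 100 normalized counts. By the adjusted p alone, without a fold minimum, 23 members differed from GL in HL15, 50 in HL60, 60 in R15 and 56 in R60, where 24.6%, 38.8%, 45.8% and 43.5% of all genes did. The median log2 fold change of the members against GL was 0.17 in HL15, 0.07 in HL60, -0.14 in R15 and -0.29 in R60, and that of all genes stayed between -0.03 and 0.01.

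Over the 4 treatments, 55 members (48.2%) were called at least once, as were 35.4% of all genes. Of these, 21 were only ever higher, 33 only ever lower, and 1, CYP72A8, was both. The members that moved in all 4 treatments were few. CYP81D1 and CYP96A4 were higher in all 4, and CYP78A6 and CYP96A12 were lower in all 4. From HL60 on, 5 members were called higher in HL60, R15 and R60 and 12 were called lower at all 3. The shares of all genes with each of these patterns were not counted, so these counts have no background beside them.

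**Figure D2:**
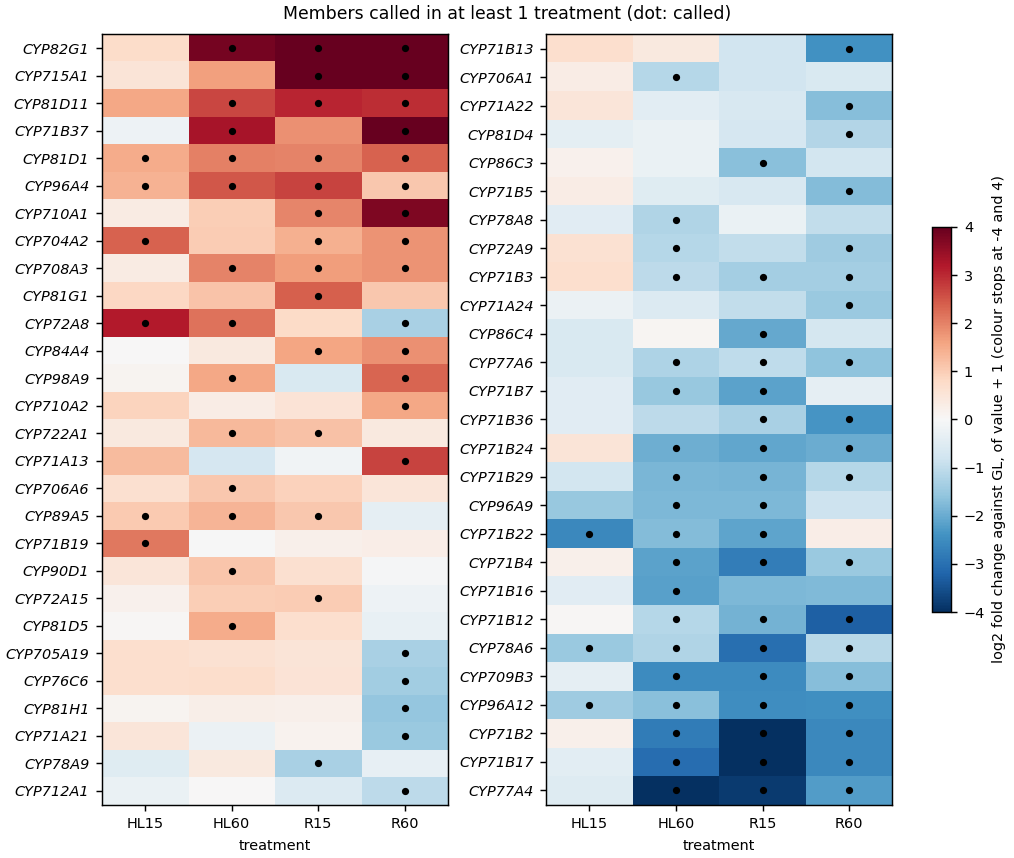
The 55 members called in at least 1 treatment, in rows ordered by their mean log2 fold change, against the 4 treatments in columns. Colour gives the log2 fold change against GL of the value plus 1, with colours stopping at -4 and 4, and a black dot marks a call. CYP82G1 heads the left block, and CYP71B2, CYP71B17 and CYP77A4 close the right block.

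Of the reductases that feed P450s with electrons, ATR2 rose and ATR1 did not. ATR2 (AT4G30210), 1 of the NADPH-cytochrome P450 reductases of Arabidopsis, averaged highest in R15. Its values were 2288, 2327 and 2493 in GL, 3151, 4678 and 4541 in HL15, 5183, 4978 and 5442 in HL60, 7357, 8587 and 6862 in R15, and 2953, 3021 and 2707 in R60. ATR2 rose against GL by a log2 fold change of 0.78 ± 0.13 (SE) in HL15, 1.13 ± 0.13 in HL60 and 1.68 ± 0.13 in R15 (limma adjusted p = 0.000761, 1.01e-05 and 1.98e-07), and all R15 libraries lay above all libraries of the other conditions. In R60 the difference was 0.29 ± 0.13 (adjusted p = 0.0912), and the step from R15 to R60 was -1.39 ± 0.13 (adjusted p = 2.08e-06). ATR1 (AT4G24520), the other reductase, stayed between 887 and 1196 in every library, with -0.34 ± 0.08 in R15 (adjusted p = 0.00176).

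The CYP71 family, with 29 of the 114 members, held 10 of the 19 members called lower in HL60. It held 10 of the 19 in R15 and 13 of the 25 in R60. Thus 10, 10 and 13 of its 29 members were called lower, where 7.8%, 8.94% and 8.53% of all genes were. Its CYP71B subfamily has 23 members, of which 10 were called lower in HL60, 10 in R15 and 10 in R60, while in HL15 1 was lower. Called higher were 1 in HL15, 1 in HL60, 0 in R15 and 1 in R60. The median log2 fold change of the 23 was 0.31 in HL15, -1.04 in HL60, -0.78 in R15 and -0.96 in R60. In all, 13 of them were called lower in at least 1 treatment, and 7 in HL60, R15 and R60 alike: CYP71B2, CYP71B3, CYP71B4, CYP71B12, CYP71B17, CYP71B24 and CYP71B29. The matching shares over all genes were not counted. In HL60 against HL15, 11 of the 23 were called lower and 1 higher, with 6.22% and 6.4% of all genes called lower and higher. The 11 include CYP71B19, CYP71B20 and CYP71B23, which were called lower than GL in no treatment. The calls of CYP71B7, CYP71B29 and CYP71B37 (the higher one) were lost without HL15 replicate 1, HL60 replicate 2 or HL60 replicate 3.

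CYP71B2 (chr1:4459002-4460996, TAIR10.1) was called lower in HL60, R15 and R60. It had 2369, 2523 and 2681 in GL, 3565, 2614 and 2621 in HL15, 531, 362 and 253 in HL60, 169.7, 173 and 91.7 in R15 and 601, 378 and 334 in R60. GL and HL15 overlapped, and every library of the 3 later conditions was at or below 601. Against GL, CYP71B2 fell, with log2 fold changes of -2.79 ± 0.28 in HL60, -4.17 ± 0.28 in R15 and -2.57 ± 0.28 in R60 (adjusted p = 3.13e-06, 5.68e-08 and 5.25e-06), and between R15 and R60 it rose by 1.60 ± 0.28 (adjusted p = 0.000476). The promoter of CYP71B2, shown because the gene had the largest fall in R15, holds a G-box (CACGTG) and a pair of W-box cores (TTGAC). These 250 bases before the annotated start, chr1:4458752-4459001 on the + strand of TAIR10.1 in RefSeq, have the matches in capitals.
CYP71B2: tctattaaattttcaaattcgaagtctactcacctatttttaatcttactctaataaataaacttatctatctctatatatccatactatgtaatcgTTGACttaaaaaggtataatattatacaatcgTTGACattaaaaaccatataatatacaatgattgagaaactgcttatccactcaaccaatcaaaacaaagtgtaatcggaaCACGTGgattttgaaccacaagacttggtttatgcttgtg

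CYP71B4 and CYP71B7, both abundant in GL, also fell in HL60 and R15. CYP71B4 had 1543, 1322 and 1458 in GL, 1471, 1685 and 1779.8 in HL15, 720.3, 250.5 and 189.7 in HL60, 213, 278 and 162 in R15 and 629.7, 362 and 591 in R60. It fell, with log2 fold changes of -2.14 ± 0.37, -2.75 ± 0.37 and -1.49 ± 0.37 in HL60, R15 and R60 (adjusted p = 0.000343, 2.84e-05 and 0.00435). CYP71B7 had 2091, 2489 and 2293 in GL, 1982, 1532 and 1520.5 in HL15, 1287, 717 and 542 in HL60, 516, 517 and 518 in R15 and 1911, 2177 and 1347 in R60. It fell, with -1.52 ± 0.24 in HL60 and -2.14 ± 0.24 in R15 (adjusted p = 0.00019 and 6.46e-06), with HL60 replicate 1 the highest of its group for both genes. In R60 the CYP71B7 libraries overlapped those of GL (-0.36, adjusted p = 0.25), while those of CYP71B4 did not.

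On chromosome 5, 3 neighbouring CYP71B genes were lowest in R60. CYP71B12 had 591, 558 and 588 in GL, 743, 523 and 551 in HL15, 293, 278 and 223 in HL60, 165, 134 and 167 in R15 and 85.6, 33.5 and 73.3 in R60, so each condition after HL15 was below the one before it. Its log2 fold change in R60 was -3.26 ± 0.26 (adjusted p = 2.55e-07), and it shares 20.01% of its 31-base stretches with other genes. CYP71B13, its neighbour, had 448, 389.9 and 515 in GL, 557, 691 and 536 in HL60, 205, 388 and 224 in R15 and 172, 41.5 and 77.8 in R60, and fell by 2.43 ± 0.36 in R60 (adjusted p = 8.58e-05). CYP71B11, the other neighbour, was above GL in HL15 and HL60 (0.78 and 0.68, adjusted p = 0.00984 and 0.0123) and below it in R60 (-0.81, adjusted p = 0.00348). CYP71B13 and CYP71B11 share 12.2% and 11.02% of their 31-base stretches with other genes, and 9.76% and 8.71% with CYP71B12. Some reads could therefore be placed on more than 1 of these genes. All 3 were called lower in R60 than in R15. Over the CYP71B subfamily 4 members were called higher and 4 lower in that step, with 7.11% and 8.05% of all genes called. The rise of CYP71B4 there was lost without R15 replicate 3 (adjusted p = 0.0571). Without R60 replicate 2, the lowest library of its group for these 3 genes, CYP71B12 and CYP71B11 stayed under the 2-fold limit in that step (-0.95 and -0.94, adjusted p = 0.000798 and 4.76e-05).

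**Figure D3:**
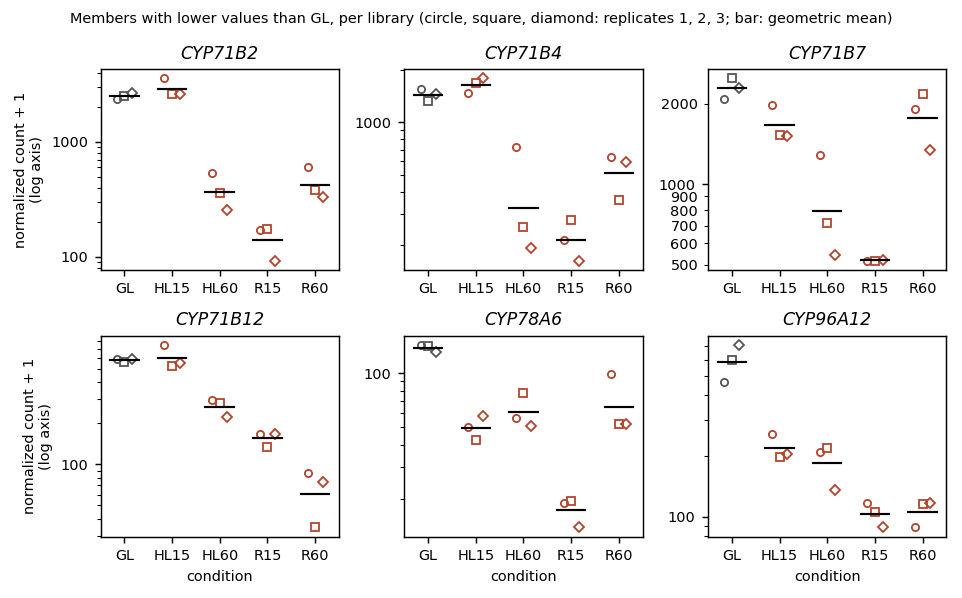
Normalized count plus 1, on a log axis, of 6 members in each of the 15 libraries, by condition from GL to R60. Circles, squares and diamonds are replicates 1, 2 and 3 and the bar is their geometric mean. CYP71B2, CYP71B4 and CYP71B7 were lowest in R15, and CYP71B12 in R60.

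Other CYP71B members fell from lower levels. CYP71B24 had 70.7 to 184 in the 9 libraries of HL60, R15 and R60, against 430.2, 415 and 425 in GL, with log2 fold changes of -1.96, -2.09 and -1.97. CYP71B29 had 83.2, 68.01 and 67.7 in R15, against 262, 295 and 237 in GL (-1.84), and CYP71B3 had 53.1, 22.3 and 31.2 in R15, against 106, 77.8 and 80.1 in GL (-1.36). The HL60 call of CYP71B3 was lost without GL replicate 1, GL replicate 3, HL60 replicate 2 or HL60 replicate 3 (adjusted p = 0.0505 to 0.118). CYP71B17 had 2.01, 2.47 and 0 in R15, against 34.4, 30.9 and 47.1 in GL, and was called in HL60, R15 and R60. CYP71B5 was called only in R60, with 236, 131 and 108 against 497, 491 and 529 in GL. At the bottom of the range, CYP71B22 had 0.746, 0 and 0 in HL15 against 3.33, 9.97 and 6.6 in GL, and CYP71B16 0.99, 0 and 0 in HL60 against 6.65, 3.99 and 3.77 in GL. The HL60 call of CYP71B16 was lost without any 1 GL library or HL60 replicate 2 or 3 (adjusted p = 0.0616 to 0.104), and that of CYP71B22 without GL replicate 2, GL replicate 3 or HL60 replicate 1 (adjusted p = 0.0825 to 0.133).

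CYP71B19 was the only CYP71B member called higher in HL15, and it was called in no other treatment. It had 904, 1168 and 1132 in HL15, against 288, 209 and 246 in GL, with no overlap (2.11 ± 0.24, adjusted p = 2.86e-05). In HL60 it had 263, 276 and 202 (-0.01 against GL, adjusted p = 0.988). CYP71B20, the next P450 gene on chromosome 3, had 1657, 1906 and 1789 in HL15, against 1287, 1234 and 1203 in GL (0.52 ± 0.19, adjusted p = 0.0546). The difference between the responses of the pair was not tested. Their transcripts share 32.0 and 29.4% of their 31-base stretches with each other, so some reads could be placed on either. The 2 promoters are shown for comparison, 250 bases each on the - strand of TAIR10.1, at chr3:9575216-9575465 and chr3:9580114-9580363. In a global alignment 68.0% of the columns were identical, against 47.1 to 55.6% for the other pairs among the 5 promoters printed here. Capitals in CYP71B20 mark AAAATATCT (the evening element of clock-regulated promoters, on the opposite strand) and GAANNTTC (a short heat shock element), and CYP71B19 has a match to neither nor to any other motif searched.
CYP71B19: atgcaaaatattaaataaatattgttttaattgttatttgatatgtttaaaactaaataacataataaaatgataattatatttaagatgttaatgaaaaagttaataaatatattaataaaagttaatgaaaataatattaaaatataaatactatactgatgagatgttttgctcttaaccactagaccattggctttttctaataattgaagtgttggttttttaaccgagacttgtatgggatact
CYP71B20: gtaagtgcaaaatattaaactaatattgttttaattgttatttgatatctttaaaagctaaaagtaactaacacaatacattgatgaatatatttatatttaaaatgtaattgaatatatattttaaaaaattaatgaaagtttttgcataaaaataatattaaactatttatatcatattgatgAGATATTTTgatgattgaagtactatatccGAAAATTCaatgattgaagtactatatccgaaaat

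At the far end of the same chromosome region, a further pair of neighbours differed in direction. CYP71B36 had 60.7, 11.98 and 17.8 in R60, against 94.2, 129.6 and 161 in GL (-2.36 ± 0.48, adjusted p = 0.00112), and -3.02 without R60 replicate 1. CYP71B37, next to it, had 159.7, 20.8 and 64.4 in R60, against 0, 0.997 and 10.4 in GL (4.43 ± 1.09, adjusted p = 0.00422). The size of that rise hung on single libraries: it was 3.68 without GL replicate 1, 5.44 without GL replicate 3, 3.74 without R60 replicate 1 and 5.18 without R60 replicate 2. The 2 share little sequence, at 5.4% of the 31-base stretches of CYP71B37, and the difference between them was not tested. CYP71B37 was also called in HL60 with 4.95, 52.5 and 67.5, where replicate 1 was within the GL range and the call was lost without GL replicate 1 or 2 or HL60 replicate 2 or 3 (adjusted p = 0.0805 to 0.117). The call of CYP71B36 in R15 (-1.30) was likewise lost without GL replicate 2 or 3 or R15 replicate 2 or 3 (adjusted p = 0.0635 to 0.138).

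**Figure D4:**
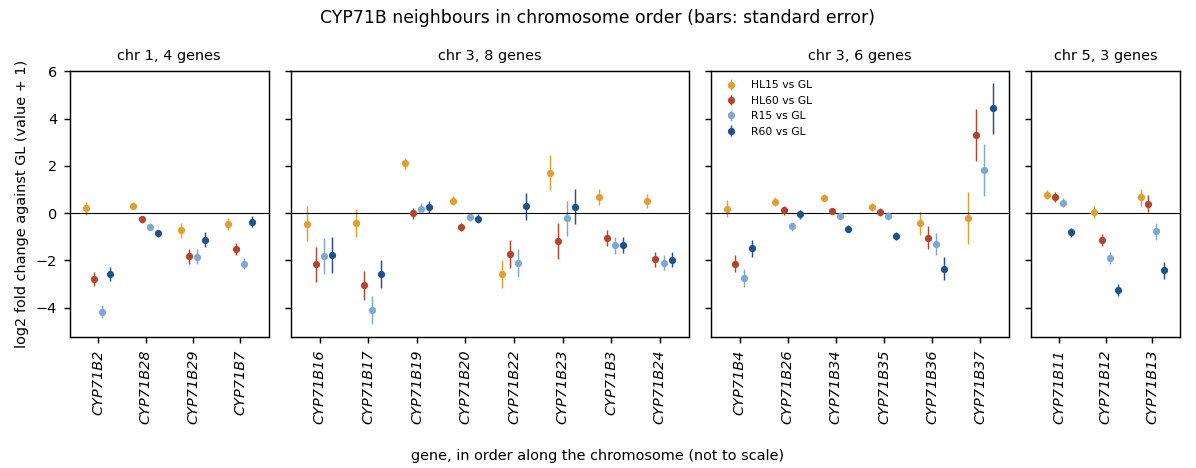
Log2 fold change against GL (value plus 1, with standard error) of the CYP71B members in 4 runs of neighbouring genes, in their order along chromosomes 1, 3 and 5, one colour per treatment. CYP71B19 stands above its neighbours in HL15, CYP71B37 above CYP71B36 in HL60, R15 and R60, and the chromosome 5 genes are lowest in R60.

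Neighbouring copies are common among the members: 70 of the 114 sit in 20 runs in which at most 2 other protein-coding genes lie between members of the same family. CYP71B genes fill a run of 8 (chr3:9565627-9599988) and a run of 6 (chr3:9630128-9648658), and a run of 4 on chromosome 1 holds CYP71B2, CYP71B28, CYP71B29 and CYP71B7 (chr1:4459002-4469033). In the chromosome 1 run 3 of the 4 were called lower in HL60 and in R15, and in the run of 8 it was 5 and 4, with 7.8% and 8.94% of all genes called lower. Within the run of 6, CYP71B26, CYP71B34 and CYP71B35 were called in no treatment, with log2 fold changes between -0.96 and 0.66. CYP71B26 is 1 of the 10 members with the highest mean and ranged between 1546 and 4163.

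The CYP71A subfamily has 6 members, and 3 of them, all in a run of 5 on chromosome 3 (chr3:17879542-17892847), were called only in R60, where 8.53% of all genes were called lower. CYP71A22 had 328, 185 and 296 in R60, against 892, 823 and 878 in GL (-1.72 ± 0.18, adjusted p = 3.12e-06). CYP71A21 and CYP71A24 had -1.49 and -1.49. A long non-coding RNA on the opposite strand covers 30.2% of the 31-base stretches of CYP71A21. CYP71A22 and CYP71A24 were already below GL in R15 by less than 2-fold (-0.64 and -0.98, adjusted p = 0.00968 and 0.00613). CYP71A25, in the same run, was above GL in HL15, HL60 and R15 and below it in R60, without reaching 2-fold, and fell by 1.64 ± 0.17 between R15 and R60 (adjusted p = 4.61e-06). CYP71A13, which turns indole-3-acetaldoxime into indole-3-acetonitrile on the way to the phytoalexin camalexin, went the other way. It had 5.35, 13.6 and 11.1 in R60, against 1.11, 0 and 0.942 in GL, and was called in R60 (adjusted p = 0.00197), though at such low counts the size of the change depends on the 1 added. The gene AT2G30766 on the opposite strand covers 20.6% of the 31-base stretches of CYP71A13, and 10.04% of them occur in other genes. CYP71B6, which oxidizes indole-3-acetonitrile, stayed between 412 and 932.

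CYP72A8 (AT3G14620, chr3:4914789-4917176) gave the largest rise of any member in HL15 and was the only member called in both directions. It had 386, 310.1 and 493 in GL, 3234, 3569.7 and 3729.6 in HL15, 1581, 2193 and 1603 in HL60, 762, 716 and 525 in R15 and 243, 97.4 and 170.0 in R60, so that it declined at each step after HL15. Its log2 fold changes against GL were 3.17 ± 0.26 in HL15, 2.18 ± 0.26 in HL60, 0.76 ± 0.26 in R15 and -1.29 ± 0.26 in R60 (adjusted p = 1.36e-06, 1.63e-05, 0.03 and 0.0012). All R60 libraries were below all GL libraries, but without R60 replicate 2 the R60 change was -0.94 (adjusted p = 0.00441), under the 2-fold limit. The 6 other members of its run on chromosome 3 were not called in HL15, with log2 fold changes between -0.24 and 0.59. CYP72A15 had 3107, 3451 and 2957 in R15, against 1556, 1505 and 1644 in GL (1.01 ± 0.15), a call at the 2-fold limit that went without GL replicate 2 or R15 replicate 2 (0.98 and 0.95). CYP72A9, which hydroxylates gibberellins at C-13, had 9.92, 3.23 and 10.1 in R60, against 23.5, 27.2 and 13.3 in GL, and its call there was lost without GL replicate 1, GL replicate 2 or R60 replicate 2 (adjusted p = 0.0523 to 0.083). Its HL60 call was lost without any of 10 libraries, all but GL replicate 3, R15 replicate 3 and the R60 libraries (adjusted p = 0.0526 to 0.159). CYP72A11 and CYP72A13, among the most abundant members, were called in no treatment.

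**Figure D5:**
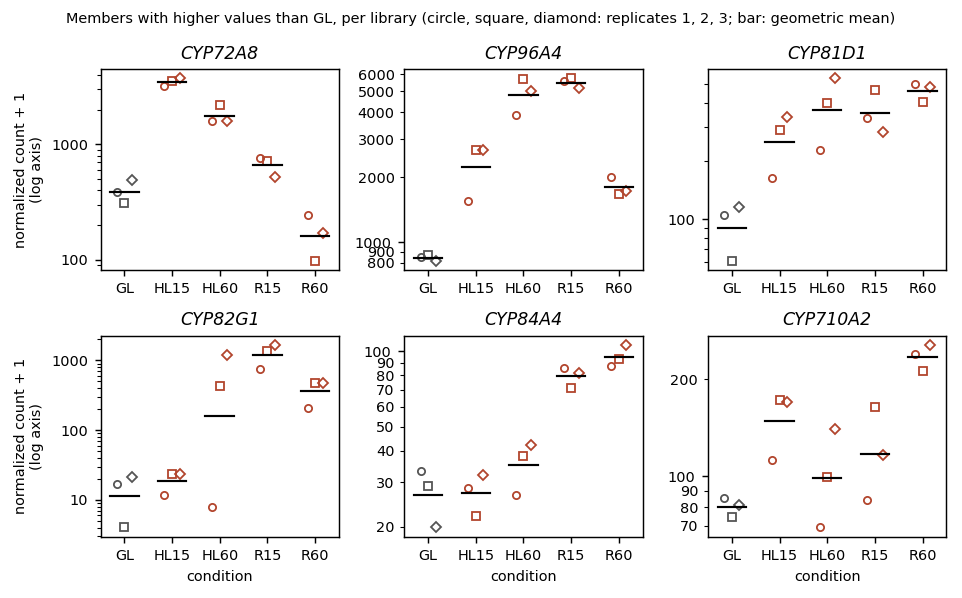
Normalized count plus 1, on a log axis, of 6 members in each of the 15 libraries, by condition from GL to R60. Circles, squares and diamonds are replicates 1, 2 and 3 and the bar is their geometric mean. CYP72A8 was highest in HL15 and below GL in R60, CYP96A4 and CYP82G1 were highest in R15, and CYP84A4 and CYP710A2 in R60, while HL60 replicate 1 of CYP82G1 lay with GL.

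CYP82G1 (AT3G25180, chr3:9167138-9169301), which makes the volatile homoterpene TMTT that leaves release after attack, showed the largest rise of all members. It had 15.7, 3.02 and 19.96 in GL, 10.6, 22.4 and 22.8 in HL15, 6.99, 427 and 1192 in HL60, 753, 1339.8 and 1648 in R15 and 206, 469.7 and 472 in R60. GL and HL15 overlapped, HL60 replicate 1 lay within the GL range, and every R15 and R60 library was above every GL library. The log2 fold changes against GL were 6.73 ± 1.28 in R15 and 5.001 ± 1.28 in R60 (adjusted p = 0.000601 and 0.00543), and 5.99 and 4.26 without GL replicate 2 (adjusted p = 0.00435 and 0.0302). In HL60 the change was 3.83 ± 1.28 (adjusted p = 0.028) and 6.00 without HL60 replicate 1, and the call was lost without GL replicate 2 or HL60 replicate 2 or 3 (adjusted p = 0.113 to 0.138). Of the other terpene-oxidizing members, CYP76C1, a linalool oxidase and 1 of the 10 members with the highest mean, rose by 0.74 in R15 and 0.59 in R60 (adjusted p = 0.000232 and 0.00157), under the 2-fold limit, and CYP76C2 stayed under 10. CYP76C6 was lower in R60, with 119, 60.7 and 47.2 against 201, 184 and 174 in GL. The promoter of CYP82G1 is shown because of the size of its rise. It holds 1 evening element, AAAATATCT, in capitals, near its far end (chr3:9169302-9169551, - strand, TAIR10.1).
CYP82G1: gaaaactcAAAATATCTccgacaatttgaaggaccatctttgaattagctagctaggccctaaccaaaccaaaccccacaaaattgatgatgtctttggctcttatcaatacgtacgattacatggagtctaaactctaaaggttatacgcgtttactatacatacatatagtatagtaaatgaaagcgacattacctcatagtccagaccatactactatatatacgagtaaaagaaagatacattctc

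In the CYP81 family, with 10 members, 3 were called higher in HL60, 3 in R15 and 2 in R60, and 2 lower in R60, where 7.76%, 10.9% and 10.7% of all genes were called higher and 8.53% lower. CYP81D1 was higher in all 4 treatments. It had 103, 59.95 and 114 in GL, 162, 288 and 335 in HL15, 227, 398 and 533 in HL60, 333, 464 and 282 in R15 and 496, 404 and 482 in R60. Every treated library was above every GL library, and the log2 fold change was 1.48 ± 0.33 in HL15 and 2.35 ± 0.33 in R60 (adjusted p = 0.00496 and 4.55e-05).

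CYP81D11, known as a gene induced by foreign compounds and oxylipins through TGA factors, was low in GL. It had 2.97, 52.5 and 85.5 in HL60, 25.1, 69.2 and 21.5 in R15 and 44.6, 19.2 and 34.4 in R60, against 5.54, 9.97 and 0 in GL, and HL60 replicate 1 was within the GL range. It was called in HL60, R15 and R60 (adjusted p = 0.048, 0.0219 and 0.0277). The HL60 call was lost without any of 13 libraries, all but GL replicate 2 and HL60 replicate 1 (adjusted p = 0.0512 to 0.227). The R15 call was lost without GL replicate 3 or R15 replicate 2 (0.119 and 0.0863), and the R60 call without GL replicate 3, R60 replicate 1 or R60 replicate 3 (0.144, 0.0806 and 0.0681). Its promoter is shown because it holds both the core of the as-1 element that TGA factors bind (TGACG) and a G-box (CACGTG), in capitals (chr3:10790554-10790803, - strand, TAIR10.1).
CYP81D11: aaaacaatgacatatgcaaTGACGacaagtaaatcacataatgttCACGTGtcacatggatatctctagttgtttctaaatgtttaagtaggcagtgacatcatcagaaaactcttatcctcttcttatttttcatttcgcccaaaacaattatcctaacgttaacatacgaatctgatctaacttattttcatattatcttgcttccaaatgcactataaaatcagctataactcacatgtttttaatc

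CYP81D8, also known for its response to foreign compounds, varied between 18.7 and 126 and was called in no treatment. CYP81D5 was called in HL60, with 338, 422 and 271 against 139, 109 and 116 in GL (1.48 ± 0.17, adjusted p = 9.5e-06), and was higher in R15 by less than 2-fold (0.68, adjusted p = 0.00453). Of its neighbours in a run of 5 on chromosome 4, 2 fell in R60: CYP81H1 had 253, 268 and 237 against 711, 707 and 789.7 in GL (-1.54 ± 0.19, adjusted p = 1.77e-05), and CYP81D4 had -1.16 (adjusted p = 3.47e-06). CYP81G1 was at 0 in all GL libraries and had 4.01, 2.47 and 7.52 in R15, which is at least 1.56-fold higher than a floor of 3 normalized counts per library. That call was lost without any 1 GL library or R15 replicate 3 (adjusted p = 0.0512 to 0.0862), and the gene overlaps MYBR1 on the opposite strand.

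Among the hydroxylases of phenolic rings, with 4 members, CYP84A4, which leads to the alpha-pyrone arabidopyrones, was called only in recovery. It had 84.2, 70.5 and 80.6 in R15 and 86.5, 91.8 and 104 in R60, against 32.2, 27.9 and 18.8 in GL, while HL15 and HL60 overlapped GL. The changes were 1.57 ± 0.24 and 1.83 ± 0.24 (adjusted p = 0.0001 and 2.63e-05). CYP98A3, the 3'-hydroxylase of lignin precursors, had 1723, 1629.8 and 1832 in R15, against 939, 941 and 882 in GL, and differed by 0.91 (adjusted p = 1.57e-05), just under 2-fold, then fell by 1.19 ± 0.11 between R15 and R60. Its low-expressed relative CYP98A9, known from pollen phenolamides, had 24.1, 15.97 and 13.3 in R60, against 1.11, 4.99 and 2.83 in GL (2.33 ± 0.46, adjusted p = 0.000801), and its HL60 call was lost without GL replicate 1 (adjusted p = 0.0719). CYP98A8, its neighbour, stayed under 20 and was not called, and long non-coding RNAs lie on the strand opposite to both CYP98A8 and CYP98A9.

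The sterol list had 3 members. CYP710A1 and CYP710A2, neighbouring C-22 desaturases that make stigmasterol and brassicasterol, were both higher in R60. CYP710A2 had 239, 212 and 254 in R60, against 84.3, 73.8 and 80.1 in GL, with no overlap (1.55 ± 0.27, adjusted p = 0.000267). CYP710A1 had 15.2, 20.8 and 13.3 in R60, against 1.11, 0 and 0 in GL (adjusted p = 0.00037). The smaller R15 call of CYP710A1 was lost without GL replicate 2, GL replicate 3 or R15 replicate 3 (adjusted p = 0.081 to 0.14). CYP51G1, the sterol 14-demethylase of the main pathway, was below GL by less than 2-fold in HL60, R15 and R60 (-0.58, -0.50 and -0.68, adjusted p = 0.000226, 0.000622 and 4.82e-05).

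Several hormone P450s are listed under other names and are not members. CYP90D1, a brassinosteroid C-23 hydroxylase, had 116, 145 and 193 in HL60, against 60.2, 60.6 and 89.1 in GL (1.10 ± 0.24, adjusted p = 0.00232), and 0.91 (adjusted p = 0.0137) without HL60 replicate 3. CYP72C1, which inactivates brassinosteroids, was called in no treatment, with values of 0.942 to 59.1, and the gene AT1G17065 overlaps it on the opposite strand. CYP88A3, the ent-kaurenoic acid oxidase KAO1 of gibberellin synthesis, and CYP711A1, the strigolactone enzyme MAX1, stayed within 97.8 to 132 and 156 to 390 and were not called.

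Of the 8 members for cutin and wax, 2 were called lower in HL60, in R15 and in R60, where 7.8%, 8.94% and 8.53% of all genes were. Called higher were 0 of the 8 in every treatment, where 4.79 to 10.9% of all genes were, so that with 8 members this count is near the background. CYP77A6, a mid-chain hydroxylase of cutin monomers, had 11.9, 8.76 and 16.9 in HL60 and 7.14, 7.19 and 14.4 in R60, against 32.2, 37.9 and 21.7 in GL (-1.23 and -1.61, adjusted p = 0.0104 and 0.00151), and its R15 call was lost without GL replicate 1, GL replicate 2 or R15 replicate 3 (adjusted p = 0.0702 to 0.0981). CYP77A4, a fatty acid epoxygenase, was at 0 in all 3 HL60 libraries, against 128, 77.8 and 107 in GL, at least 34.7-fold lower by a floor of 3 normalized counts per library. It had 0, 13.6 and 24.7 in R15 and 25.9, 28.7 and 12.2 in R60, and its R60 call was lost without any 1 of 8 libraries, the GL and R60 libraries and HL15 replicates 2 and 3 (adjusted p = 0.051 to 0.135). The whole of CYP77A4 lies opposite to the gene AT5G04670, which had 471 to 622 in HL60, against 458 to 516 in GL. CYP86A2, a fatty acid omega-hydroxylase of cutin and the member with the second highest mean, differed by -0.58 in R15 (adjusted p = 0.00623), and the omega-hydroxylase CYP86A8 by -0.95 in R60 (adjusted p = 0.000143), both short of 2-fold. The epidermis marker ATML1 averaged 1922 in GL, 1831 in HL15, 2068 in HL60, 1662 in R15 and 1686 in R60, and the marker PDF1 did not exceed 21.6. Their part in these results was not tested.

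The CYP96 family, whose member CYP96A15 hydroxylates wax alkanes, held 2 abundant genes that moved in opposite directions. CYP96A4 (chr5:21244723-21246774), 1 of the 10 members with the highest mean, had 847, 871 and 819 in GL, 1554, 2659.7 and 2683 in HL15, 3866, 5663 and 4994 in HL60, 5545, 5727 and 5187 in R15 and 2009.7, 1669 and 1729 in R60. Every treated library was above every GL library, with log2 fold changes of 1.398 ± 0.18, 2.50 ± 0.18, 2.70 ± 0.18 and 1.09 ± 0.18 in that order of treatments (adjusted p = 8.48e-05, 1.09e-07, 4.83e-08 and 0.0002). CYP96A12 had 466, 599 and 706 in GL, 256, 196 and 204 in HL15, 209, 218 and 134 in HL60, 116, 104 and 88.1 in R15 and 87.4, 114 and 116 in R60. It was below every GL library in every treated library, with log2 fold changes of -1.42 ± 0.21, -1.67 ± 0.21, -2.50 ± 0.21 and -2.46 ± 0.21 (adjusted p = 0.000244, 1.95e-05, 3.4e-07 and 3.89e-07). CYP96A1 was called lower in R15 than in HL60 (log2 fold change -1.35), and CYP96A15 stayed under 11.

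CYP78A genes, whose products promote the growth of organs and seeds, have 3 members. CYP78A6 (EOD3) had 142, 141 and 130.1 in GL, 49.2, 41.3 and 56.5 in HL15, 55.4, 76.6 and 49.6 in HL60, 18.05, 18.5 and 12.9 in R15 and 98.1, 51.1 and 51.1 in R60. All treated libraries were below all GL libraries, and the log2 fold changes were -1.48 ± 0.26 in HL15, -1.19 ± 0.26 in HL60, -3.00 ± 0.26 in R15 and -1.10 ± 0.26 in R60 (adjusted p = 0.00111, 0.00226, 5.59e-07 and 0.00336). Without R60 replicate 2 or 3 the R60 change was under 2-fold (-0.95, adjusted p = 0.0194 and 0.019). CYP78A9 was lower in R15, with 81.2, 82.3 and 39.5 against 131, 164 and 186 in GL (-1.29 ± 0.31, adjusted p = 0.00332), and -0.95 (adjusted p = 0.0184) without R15 replicate 3. CYP78A8 was called lower in HL60 only (-1.21), a call lost without GL replicate 2 or 3 or HL60 replicate 2 or 3 (adjusted p = 0.0515 to 0.154).

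Other members with calls were spread over small families. CYP709B3, a gene required for tolerance of salt and ABA, had 429, 288 and 321 in HL60, 401, 319.8 and 303 in R15 and 766, 499 and 533 in R60, against 2096, 1729 and 2004 in GL, with log2 fold changes of -2.50 ± 0.17, -2.51 ± 0.17 and -1.72 ± 0.17 (adjusted p = 7.18e-08, 5.84e-08 and 2.04e-06). CYP708A3 had 406, 1876 and 1360.0 in HL60, 747, 851 and 846 in R15 and 851, 1019 and 809 in R60, against 253, 281 and 238 in GL, and its HL60 change of 1.98 ± 0.38 became 2.63 without HL60 replicate 1. CYP704A2 had 39.5, 100.3 and 97.97 in HL15, against 12.2, 11.97 and 16.96 in GL (2.35 ± 0.51, adjusted p = 0.00447). Its R15 call was lost without GL replicate 1 or 2 or R15 replicate 1 or 2 (adjusted p = 0.087 to 0.107). CYP715A1 was at 0 in all GL libraries and had 35.1, 25.97 and 8.6 in R15 and 14.3, 10.4 and 62.2 in R60. These are at least 7.74-fold and 9.65-fold higher by a floor of 3 normalized counts per library. The bound was 5.76-fold in R15 without R15 replicate 1 and 4.11-fold in R60 without R60 replicate 3.

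The 2 most abundant genes of the CYP706 family moved in opposite directions in HL60. CYP706A6, with the highest mean of all members, had 11178, 8316 and 7840.1 in HL60, against 4064, 3997 and 4675 in GL (1.09 ± 0.16, adjusted p = 8.84e-05), and 0.93 without HL60 replicate 1. CYP706A1 had 3139, 2460.2 and 2344 in HL60, against 5309.5, 6032 and 5987 in GL (-1.13 ± 0.15, adjusted p = 4.47e-05). It shares 50.5% of its 31-base stretches with CYP706A2, so reads of the 2 are uncertain.

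CYP89A5 had 2917, 2375 and 2269 in HL60, against 1047, 905 and 977 in GL (1.36 ± 0.13, adjusted p = 2.28e-06), and was also called in HL15 and R15, but 48.4% of its stretches occur in other genes. Its HL15 call was at the limit (1.04) and was lost without GL replicate 2 or HL15 replicate 3 (0.98 and 0.99). CYP89A2, another of the 10 members with the highest mean, rose by 0.62 to 0.75 in all 4 treatments, short of 2-fold. CYP89A9, which acts on chlorophyll breakdown products, was called lower in R15 than in HL60 (-1.03, adjusted p = 0.00595) and higher in R60 than in R15 (1.10, adjusted p = 0.00225). Both steps were under 2-fold without R15 replicate 3 (-0.77 and 0.83), and the first also without HL60 replicate 1 (-0.90).

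CYP705A genes made up the second largest family. Of 13 members, 10 of which averaged under 50, only CYP705A19 was called against GL, in R60 (74.9, 40.7 and 90.00 against 161, 180.5 and 148 in GL, -1.31 ± 0.29), and it had -0.98 without R60 replicate 2. Over all genes 8.53% were called lower in R60. CYP712A1 was likewise called only in R60 (-1.06) and had -0.94 without R60 replicate 2, and a long non-coding RNA lies opposite to it. CYP722A1 in HL60 and R15, CYP86C3 and CYP86C4 in R15, and CYP96A9 in HL60 and R15 were called at values under 61, and these calls, other than that of CYP96A9 in R15, were lost without 1 of 2 to 4 libraries (adjusted p = 0.0515 to 0.141). Genes on the opposite strand overlap CYP722A1 and CYP86C3.

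In each of the 3 steps after HL15, more members were called lower than higher. In HL60 against HL15, 5 members were called higher and 17 lower, with 6.4% and 6.22% of all genes called. In R15 against HL60, 3 were higher and 10 lower, with 5.97% and 3.73% of all genes called. In R60 against R15, 10 were higher and 16 lower, with 7.11% and 8.05% of all genes called. With 1 library left out at a time, 6 of the 22 calls were lost in the first step, 7 of the 13 in the second and 9 of the 26 in the third. The 3 higher calls in R15 against HL60 were among those lost. By the adjusted p alone, 37, 22 and 42 members differed in these 3 steps, where 35.7%, 23.3% and 41% of all genes did. CYP78A6 fell to 18.05, 18.5 and 12.9 in R15, against 55.4, 76.6 and 49.6 in HL60 (-1.81 ± 0.26, adjusted p = 0.000175), and CYP96A4 fell to 2009.7, 1669 and 1729 in R60, against 5545, 5727 and 5187 in R15 (-1.61 ± 0.18, adjusted p = 9.67e-06).

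The 250 bases before each annotated start were searched on both strands for 6 motifs in all 114 members and in 20338 promoters of tested genes. The G-box CACGTG was in 6 members (5.26%, against 7.38% of all promoters), TGACG in 12 (10.53% against 19.2%), TTGAC in 54 (47.4% against 44.7%), AAAATATCT in 4 (3.51% against 2.47%), GAANNTTC in 15 (13.2% against 9.54%) and GCCGCC, the core of the ethylene response element, in 0 (0% against 1.97%). TTGACG matches TTGAC and TGACG at once, so those counts overlap. These are matches of letters, not sites shown to be bound.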

How the data were processed

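RNA-seq of leaf RNA was analysed for 15 libraries, 3 for each of 5 conditions. The authors quantified reads with Salmon 0.12 on TAIR10 cDNA sequences and used DESeq2, and the deposited values are a normalized signal: Salmon's read estimate for each gene, scaled by the size factor of its library, and, as inferred from the values and not stated by the sources, also by transcript length where a gene has more than 1 transcript. The values are not whole counts, so a count model was not used, and estimated depth was 14403243 to 28102805 reads per library. The strand of the libraries is not given in the sources used here. All columns were mapped to a sample (0 not mapped), and whether the biological replicates came from separate batches of plants is not given in the sources used here, so p-values measure the spread between these samples.

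Values were tested as log2(value + 1) with limma 3.58.1 in R 4.3.3 in 1 fit of all 15 libraries, with a trend of the variance on the mean, for the 20512 genes with a sum of at least 10. Adjusted p-values are Benjamini-Hochberg over all these genes and are two-sided, and a call needs an adjusted p under 0.05 and a change of at least 2-fold. Fold changes are on the log2(value + 1) scale, which understates the change of low genes. The test was checked on simulated data in which only genes well above the minimum sum were changed. All genes had the same dispersion there and no library stood apart. That check therefore does not cover changes of low genes or a library that stands apart. The members, the lists of roles and the markers were chosen with earlier results of these data known. Named are, per comparison with GL, the 8 called members with the largest rise and the 8 with the largest fall, members of role lists, the 10 members with the highest mean, and members of described runs of neighbours; others named were chosen after their values were seen. Coordinates and promoter sequences come from TAIR10.1 in RefSeq. Replicate numbers were not treated as pairs: of 30 same-numbered pairs between conditions, 2 had a correlation of deviations over 0.1. Pairs with different numbers were not compared, so this cannot decide whether the samples were paired. Alternatives were the pseudocount, the filter, the normalization, a replicate block, the samples in the fit, the fold minimum, and each library left out in turn.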

Additional observations from a re-analysis of the deposited data

How the results depend on the processing

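The counts of called members changed by over 1.5 times only without the fold minimum: they were then 23 at HL15 (16 higher and 7 lower), 50 at HL60 (25 and 25), 60 at R15 (24 and 36), 37 in HL60 against HL15 (11 and 26), 22 in R15 against HL60 (5 and 17) and 42 in R60 against R15 (15 and 27). That setting asks for less by its own construction. Leaving out any 1 library, the counts ranged over 8 to 12 at HL15, 24 to 34 at HL60, 25 to 33 at R15, 32 to 39 at R60, 18 to 29 in HL60 against HL15, 9 to 14 in R15 against HL60 and 24 to 29 in R60 against R15. With the replicate block, they were 9, 30, 33, 38, 23, 13 and 26 in the same order, against 9, 32, 32, 38, 22, 13 and 26 without it, and among the 75 named members 2 calls against GL were lost. Over the values of named members against GL, a pseudocount of 5 lost 12 calls, a pseudocount of 0.5 lost 2, upper quartile normalization lost 4 and quantile normalization lost 4. No value changed direction while called. Of the 32 calls against GL that hung on 1 library, 24 were in members averaging under 100 normalized counts. In HL15, HL60, R15 and R60, the 55 members averaging under 100 had 1, 5, 7 and 8 higher calls. Their lower calls were 2, 10, 10 and 8. The 59 members averaging 100 or more had 5, 8, 6 and 5 higher calls and 1, 9, 9 and 17 lower calls. Over all genes, whatever their level, 4.79%, 7.76%, 10.9% and 10.7% were called higher in the same order. The shares called lower were 4.66%, 7.8%, 8.94% and 8.53%. Whether depth limits the calls of low members was not tested.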
